A study of Homo sapiens with 42 samples.

Results

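Small RNA of A7 and E4, 2 groups of THP-1 cells from a study of the RNA polymerase III subunits POLR3G and POLR3GL, was compared in 12 of the 42 labelled samples, of which 30 have a column in the count table. The members were chosen by name: the 3 A7 and the 3 E4 libraries made without T4 polynucleotide kinase (PNK), and the 3 and 3 made with it. THP-1 is an established human line of monocytic leukaemia cells. The table also holds the THP-1 groups A4 and G8 and libraries labelled mock. The mock libraries were left out of the fits. The THP-1 samples labelled con and the HEK293T samples given an antisense oligonucleotide were not analysed here.

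Each A7 and E4 library came from cells of the same line, grown and extracted by the same protocol, with small RNA enriched from equal numbers of cells and libraries made with a small RNA kit. The arms differ in whether the RNA was first treated with Antarctic phosphatase and PNK. The labels name A7 and E4 without saying which subunit was targeted in each, whether either group is 1 clone, or whether the 3 libraries are separate cultures, so the p-values speak for the spread of these libraries alone, which may be technical. The table's rows are non-coding RNA, so the level of the targeted gene was not checked here.

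RNA polymerase III makes short structured RNAs: transfer RNAs, which carry amino acids to the ribosome, 5S rRNA, the U6 spliceosomal RNA, 7SL and 7SK RNA, the RNA parts of RNase P and RNase MRP, vault RNAs and Y RNAs. POLR3G and POLR3GL are alternative subunits of the enzyme. Most small nucleolar RNAs (snoRNAs) and miRNAs are instead cut from RNA polymerase II transcripts, snoRNAs from introns and miRNAs from hairpins. A standard small RNA kit joins adapters to a 5′ phosphate and a 3′ hydroxyl, so phosphatase and PNK treatment brings in fragments that end otherwise.

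The vault RNAs were printed because VTRNA2-1 had the largest called difference between A7 and E4 without PNK. The capitals mark GTTCGA followed by any 2 bases and CC, searched on both strands. It overlaps no other motif searched. It resembles the B box, an internal promoter element of tRNA and vault RNA genes. Among 35116 windows of 128 bases, the first of each RefSeq promoter sequence, 61 held it on either strand, or 0.174%. The VTRNA2-1 gene lies at chr5:136080470-136080597 on the minus strand of GRCh38 (GENCODE v29), and its row in the table covers chr5:136080497-136080597. VTRNA1-1 lies at chr5:140711275-140711373 on the plus strand.
VTRNA2-1: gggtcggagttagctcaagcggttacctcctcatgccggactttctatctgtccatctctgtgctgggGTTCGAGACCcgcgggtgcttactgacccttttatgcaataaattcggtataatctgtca
VTRNA1-1: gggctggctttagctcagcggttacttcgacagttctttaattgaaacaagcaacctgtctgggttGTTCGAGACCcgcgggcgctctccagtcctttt

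SNORD68 (chr16:89561434-89561517, plus strand) and SNORD41 (chr19:12706449-12706518, minus strand) are 2 of the C/D snoRNAs that were called lower in A7 in both arms. C/D snoRNAs guide 2′-O-methylation of other RNAs. Capitals mark the first TGATGA, a form of the C box, and the last CTGA, the D box. Other copies of these short motifs in the sequences stay in lower case. Of 170 C/D snoRNA genes tested without PNK that have a GENCODE sequence, 76.5% held TGATGA and 94.1% held CTGA in their last 15 bases.
SNORD68: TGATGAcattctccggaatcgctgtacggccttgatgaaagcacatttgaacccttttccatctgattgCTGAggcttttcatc
SNORD41: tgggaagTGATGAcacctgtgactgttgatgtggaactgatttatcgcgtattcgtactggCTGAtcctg

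MIR363 was the miRNA row with the largest called difference without PNK, and miR-363-3p shares its seed, bases 2 to 8 in capitals, with miR-92a-3p and miR-25-3p. The mature sequences are those of RefSeq (GRCh38.p14).
hsa-miR-363-3p: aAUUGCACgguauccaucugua
hsa-miR-92a-3p: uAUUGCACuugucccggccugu
hsa-miR-25-3p: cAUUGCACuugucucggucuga

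After rows that overlap another row were removed, the A7 libraries held 10091957 to 12412334 counts without PNK and 6658145 to 7309241 with PNK, and the E4 libraries 10744859 to 11050233 and 6813891 to 7364379. E4 library 3 stood apart from the other E4 libraries without PNK. Its H/ACA snoRNAs held 0.151% of the counts against 0.552% and 0.690% in E4 libraries 1 and 2, and its scaRNAs 0.0551% against 0.136% and 0.175%. In A7 these shares were 0.128 to 0.298% and 0.0642 to 0.0745%. Results that rest on E4 library 3 are given with and without it. Over all tested features, E4 library 3 lay closer to A7 library 3 (root mean square log2 difference 0.564) than to E4 library 1 (0.660) or 2 (0.757).

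The largest family of each arm had overlapping shares in A7 and E4, while the shares of some other families did not overlap. Without PNK, C/D snoRNAs held 60.7 to 68.4% of the counts in A7 and 64.8 to 70.2% in E4, and the ranges overlapped. The miRNAs held 22.1% ± 2.59 (SD, n = 3) in A7 and 18.8% ± 0.752 (SD, n = 3) in E4, and nuclear tRNAs 2.43 to 4.10% and 2.04 to 2.25%. With PNK, nuclear rRNA was the largest family, with 35.3 to 41.0% in A7 and 36.8 to 39.5% in E4. Nuclear tRNAs then held 10.7 to 13.6% and 9.75 to 11.1%, and miRNAs below 1% of the counts in every library. Mitochondrial tRNAs held 2.96 to 3.54% in A7 and 3.75 to 4.23% in E4, and Y RNA pseudogenes 1.12 to 1.32% and 0.577 to 0.735%, with no overlap.

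**Figure D1:**
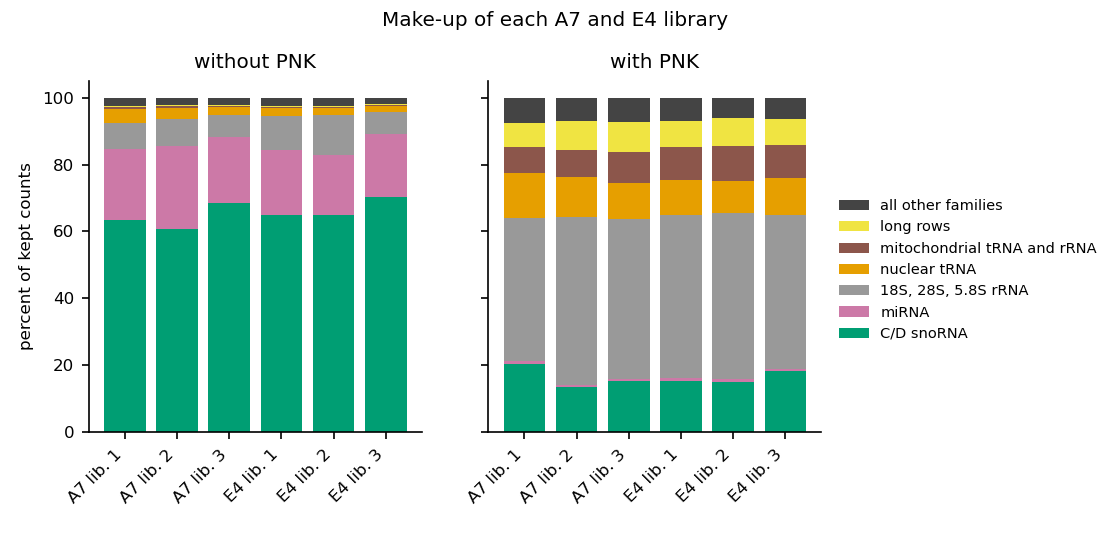
Percent of the kept counts in RNA families or groups of families, stacked, for the 3 A7 and 3 E4 libraries without PNK (left) and with PNK (right). The rRNA bar joins the 18S, 28S and 5.8S rows with rRNA-like rows. Mitochondrial tRNA and rRNA share a bar, and the remaining families are pooled. C/D snoRNA fills 60.7 to 70.2% of every library without PNK, with overlapping ranges of A7 and E4. With PNK the 18S, 28S and 5.8S rows alone hold 35.3 to 41.0%, again with overlapping ranges, and the rRNA-like rows 7.54 to 10.0%.

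What the groups share was measured first. A feature is a row of the table, and it was called when edgeR's quasi-likelihood test gave a Benjamini-Hochberg adjusted p of at most 0.05 over all features tested in that arm. Differences are log2 of A7 over E4, so that positive values are higher in A7. Without PNK, 77 of 1669 features were called (4.61%), 49 higher in A7 (2.94%) and 28 lower (1.68%). With PNK, 78 of 7490 were called (1.04%), 30 higher (0.401%) and 48 lower (0.641%). The 95% interval of the difference lay within 2-fold for 928 features without PNK (55.6%) and for 4713 with PNK (62.9%), and the estimate itself for 87.2% and 96.6%. The 3 libraries of A7 and of E4 did not overlap for 543 features without PNK (32.5%) and for 1477 with PNK (19.7%). The median difference over all tested features was -0.01 without PNK and 0.01 with PNK. The share of calls that were higher in A7 was 63.6% without PNK and 38.5% with PNK. It depended on the scaling: with library totals alone 175 features were called higher and 41 lower without PNK (81% higher), and with factors from miRNA rows 9 and 1 without PNK (90%) and 36 and 156 with PNK (18.8%). Which direction held more of the calls also depended on the fit. Without PNK, DESeq2's Wald test called 59 higher and 98 lower, and edgeR with no filter on low counts 86 and 190. Leaving out E4 library 3 gave 68 and 155, leaving out A7 library 3 91 and 82, and a robust fit 67 and 35.

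The most abundant RNAs were common to both groups. Without PNK, 8 of the 10 most abundant features of A7 were among the 10 of E4, and 87 of the top 100; with PNK these counts were 5 and 93. SNORD49A and SNORD44, C/D snoRNAs at the head of the list, show this. SNORD49A stood at 95764, 98114 and 86315 CPM (counts scaled to the library's size after TMM scaling) in A7 and 76630.1, 78794 and 102999 CPM in E4 without PNK, a log2 difference of 0.12 (95% interval -0.25 to 0.48). SNORD44 stood at 78388, 72233 and 78972 CPM in A7 and 70396, 72758 and 96822 CPM in E4, a log2 difference of -0.06 (-0.43 to 0.31). The groups overlapped for both RNAs. No tested feature was at 0 in all 3 libraries of a group, in either arm. Of the haematopoietic list, 7 rows passed the filter on low counts in each arm, though not every member did. Among them MIR223 stood at 482 to 568 CPM in A7 and 483 to 530.4 CPM in E4, and MIR142 at 2563 to 3561 and 2235 to 2664 CPM. The summed muscle miRNAs (3 rows) and the liver miRNA row were at 0 in A7 and at most 0.1 CPM in E4 without PNK. Markers of other lineages were not all absent. Rows of the epithelial, fibroblast and erythroid lists passed the filter on low counts without PNK. MIR126 of the endothelial list and MIR9-1 and MIR9-2 of the neuron list passed it in the fit over both arms. Passing the filter therefore does not set the haematopoietic list apart from these lists.

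A7 and E4 were the closest pair of the 4 THP-1 groups by the share of features whose interval lay within 2-fold. That share was 55.6% without PNK against 35.1% for A4 with A7 and 46% for A4 with E4, and 6.73 to 9.55% for the 3 pairs with G8, whose biological coefficient of variation was 50.2 to 53.4% against 24% here. With PNK it was 62.9% against 36.8 to 47.7% for the other 5 pairs. The share of features called depends on the spread within groups as well. Without PNK it was 34.8% for A4 with A7, 7.84% for A4 with E4, 1.63% for A4 with G8, 0.0623% for A7 with G8 and 0% for E4 with G8 (428 features at an unadjusted p under 0.05 in edgeR). With PNK it was 14.7%, 10.5%, 8.7%, 5.16% and 9.7%. The pairs share libraries and no test was made between them.

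**Figure D2:**
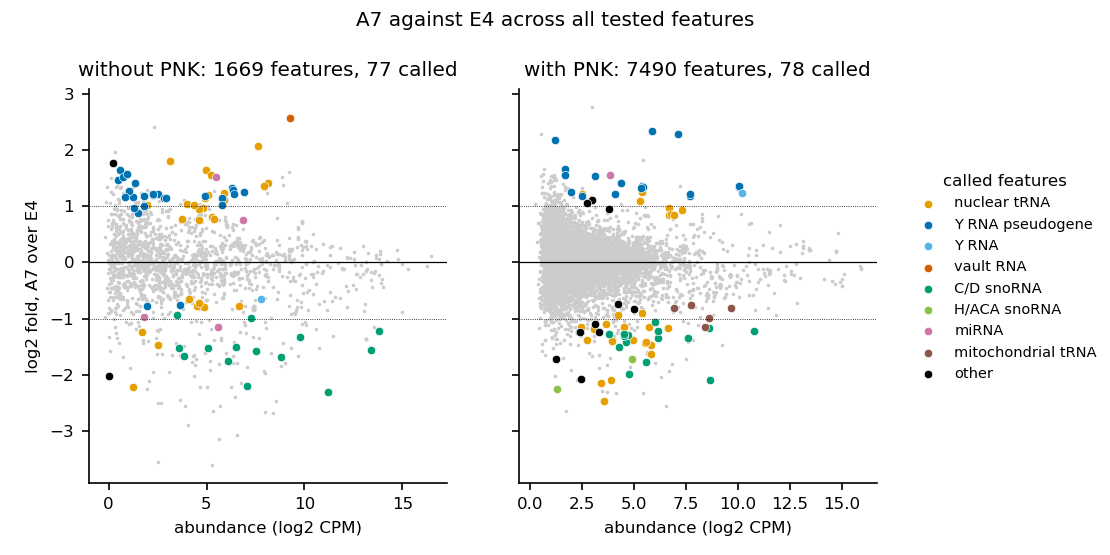
Log2 difference of A7 over E4 (y axis) against mean abundance in log2 CPM (x axis) for each tested feature, without PNK (left, 1669 features) and with PNK (right, 7490). Grey points were not called, coloured points were called and are coloured by family, and dotted lines mark a 2-fold difference.

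The number of calls depended on single libraries of both groups. Without PNK, edgeR called 1, 7 and 173 features when A7 library 1, 2 or 3 was left out. With E4 library 1 omitted it called 0 (363 at an unadjusted p under 0.05), with E4 library 2 omitted 0 (337) and with E4 library 3 omitted 223. With PNK the counts were 176, 40 and 33 without A7 library 1, 2 or 3, 0 without E4 library 1 (845 at an unadjusted p under 0.05), 7 without E4 library 2 and 215 without E4 library 3. On all 6 libraries, DESeq2's Wald test called 157 features without PNK and 207 with PNK. Each of the 77 and 78 calls ended in at least 1 of the fits that leave out a library, and each kept its direction in all of them. Other fits ended calls as well. Among the RNAs described below, SNORD68, SNORD50A, SNORD41, SNORD116-22, RNY5, MIR335, MIR197, MIR1226, tRNA-SeC-TCA-1-1, tRNA-Tyr-GTA-4-1 and the described copies of tRNA-Gly-GCC-5-1 and tRNA-Leu-AAG-1-3 lost their call without PNK with factors from miRNA rows (edgeR adjusted p of 0.0520 to 0.0720). With all 12 THP-1 libraries of the arm in the fit, these, RNY3P6, tRNA-Met-CAT-1-1 and MIR363 lost it too, and VTRNA2-1 did not.

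Of the 4 vault RNAs, VTRNA2-1 alone was called without PNK, and 0 were called with PNK by edgeR, with unadjusted p of 0.106 or more. VTRNA2-1, also known as nc886, is a Pol III transcript that binds the kinase PKR. Without PNK it stood at 1546, 868 and 689 CPM in A7 and at 165, 163 and 196 CPM in E4. Every A7 library lay above every E4 library, and the A7 libraries differed more among themselves. The log2 difference was 2.56 (SE 0.31, 95% interval 1.85 to 3.28), or 5.92-fold by the means, with an edgeR adjusted p of 0.0177. With PNK it stood at 9556, 7807 and 6117 CPM in A7 and 6351, 5251 and 7059 CPM in E4, and the groups overlapped (log2 0.33, 95% interval -0.08 to 0.74, edgeR adjusted p = 0.489). The difference with PNK minus that without was -2.24 (edgeR interaction, adjusted p = 0.00133, with 16 of 8741 features called, 0.183%). This fit treats the libraries of the 2 arms as independent, and the labels do not say whether same-numbered libraries share RNA. With those libraries paired by number it was -2.16 and also called. The interaction call ended without A7 library 1 or E4 library 1 of the arm without PNK, where edgeR called 0 features (501 and 510 at an unadjusted p under 0.05). Among the family sums the interaction was called for the vault RNAs alone, 1 of 23 (4.35%), and that call ended without A7 library 2 or 3 or E4 library 1 with PNK, or without E4 library 1 or 2 without PNK. VTRNA1-1, a part of the vault particle, stood at 191, 142 and 150.1 CPM in A7 and 139, 139 and 144 CPM in E4 without PNK, a log2 difference of 0.19 (-0.19 to 0.58).

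The sum over the 4 vault RNAs was called without PNK (log2 1.89, SE 0.30, edgeR adjusted p = 0.0112), the only one of 22 family sums (4.55%), and not with PNK (0.32, adjusted p = 0.24). VTRNA2-1 made up most of this sum. The call of VTRNA2-1 ended without E4 library 1 or 2, and that of the sum without E4 library 1. Leaving out each library in turn gave log2 differences of 2.16 to 2.77 for VTRNA2-1 and 1.52 to 2.07 for the sum.

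**Figure D3:**
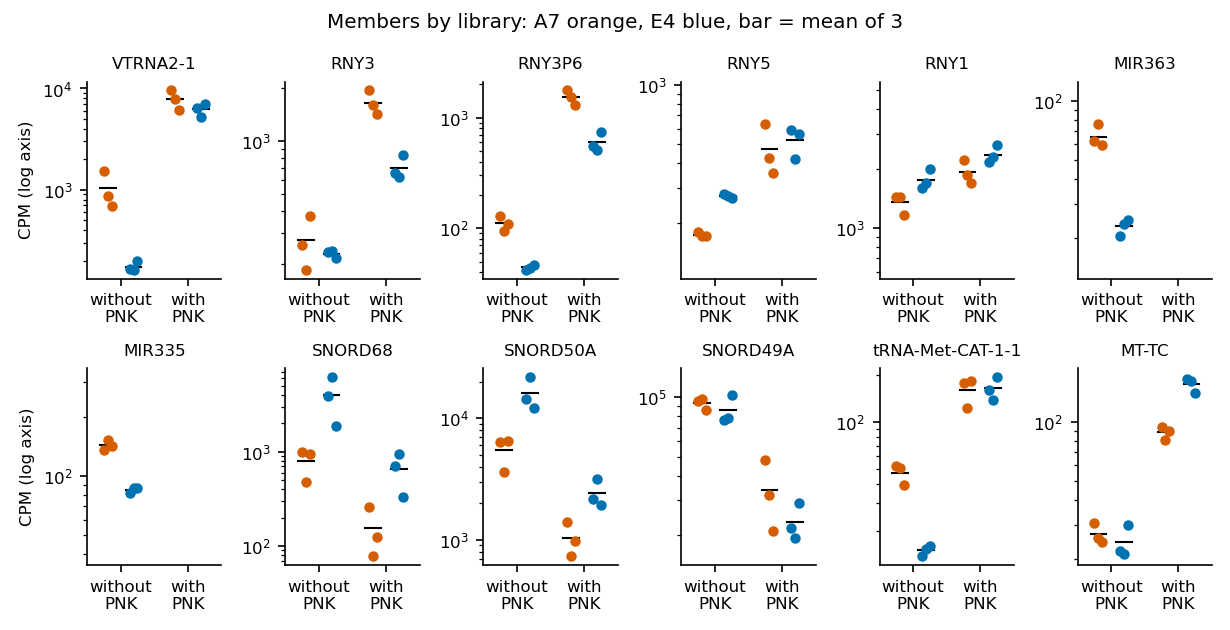
CPM on log axes of 12 named RNAs in each library, A7 in orange and E4 in blue, without and with PNK; bars are means of 3 libraries, and no point is drawn where a row was not tested. VTRNA2-1 separates without PNK, RNY3 with PNK, RNY3P6, SNORD68 and SNORD50A in both arms, and SNORD49A in neither.

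Y RNAs bind the RO60 protein and take part in DNA replication and RNA quality control. Of the 4 Y RNAs, 1 was called in each arm. RNY3 with PNK stood at 1941, 1606 and 1417 CPM in A7 and 660.0, 622 and 833 CPM in E4. Each A7 library lay above each E4 library, with a log2 difference of 1.23 (SE 0.17, edgeR adjusted p = 0.00795). Without PNK RNY3 stood at 255, 186 and 377 CPM in A7 and 235, 237 and 216 CPM in E4, and the groups overlapped (log2 0.25, 95% interval -0.34 to 0.84). RNY5 went the other way: without PNK it stood at 179.9, 171 and 170.2 CPM in A7 and 278, 274 and 267 CPM in E4. The groups were apart and tight, with a log2 difference of -0.65 (SE 0.13, edgeR adjusted p = 0.0442). With PNK the RNY5 groups overlapped (-0.15, 95% interval -0.62 to 0.32). RNY1 and RNY4 were not called in either arm, at -0.39 and 0.33 without PNK and -0.29 and 0.67 with PNK.

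The calls of RNY3 with PNK ended without E4 library 1 or 2 (log2 1.09 to 1.37 over the 6 fits that leave out a library). Those of RNY5 without PNK ended without A7 library 1 or 2 or E4 library 1 or 2 (-0.68 to -0.64). RNY5 also lost its call with library totals alone (-0.44, edgeR adjusted p = 0.0932), with factors from miRNA rows (-0.66, adjusted p = 0.0687) and without the filter on low counts (-0.70, adjusted p = 0.0662).

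Rows annotated as Y RNA pseudogenes, 866 in all, are copies of Y RNA genes scattered over the genome. For 800 of them a GENCODE sequence gave the nearest of RNY1, RNY3 and RNY4; RNY5 had no sequence there and forms no class. Of 391 rows nearest to RNY3, 71 passed the filter on low counts without PNK. Of these, 21 were called higher in A7 (background 2.94%) and 0 lower, and in 60 every A7 library lay above every E4 library (background 17.8%). Their median difference was 0.94 against -0.01 over all features. With PNK, 59 passed, 12 were called higher (background 0.401%) and 0 lower, in 31 A7 lay above (background 9.95%), and the median was 0.77. Rows nearest to RNY1 differed from these without PNK: of 91 tested, 0 were called higher and 2 lower (background 1.68%), in 43 A7 lay below (background 14.7%), and the median was -0.39. Rows nearest to RNY4 had 0 calls among 24 without PNK (median 0.24), and 2 higher among 25 with PNK (background 0.401%, median 0.70). These rows share reads with each other and with the Y RNA gene, and they are not independent.

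RNY3P6, a copy on chromosome 13, had no GENCODE sequence here and is in none of these classes. Without PNK it stood at 130.1, 93.8 and 109 CPM in A7 and 42.3, 43.8 and 46.8 CPM in E4. With PNK it stood at 1758, 1521 and 1292 CPM in A7 and 551, 514 and 745 CPM in E4. The groups were apart in both arms, at log2 1.32 (SE 0.17, edgeR adjusted p = 0.0207) and 1.34 (SE 0.18, edgeR adjusted p = 0.00747). These calls ended without E4 library 1 or 2 in both arms, and without A7 library 1 in the arm without PNK. The parent RNY3 itself had 0.25 without PNK. The pseudogene at chrX:16912215-16912317 stood at 133, 245 and 312 CPM in A7 and 43.5, 43 and 55.4 CPM in E4 with PNK, again with no overlap (4.87-fold by the means, edgeR adjusted p = 0.0042, lost without E4 library 1).

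The number of RNY3-like rows called without PNK was 0, 2 and 16 when A7 library 1, 2 or 3 was left out, and 0, 0 and 20 for E4 library 1, 2 or 3, with 49, 60, 50, 53, 52 and 60 at an unadjusted p under 0.05 in edgeR. With PNK the rows called higher were 9, 9 and 7 without A7 library 1, 2 or 3 and 0, 1 and 12 for E4 libraries 1, 2 and 3 (32 at an unadjusted p under 0.05 for E4 library 1), with 1 called lower without A7 library 1 or E4 library 3. The median stayed between 0.92 and 1.08 without PNK and between 0.48 and 0.87 with PNK. With library totals alone 53 rows were called higher without PNK and 15 with PNK (1 lower), and with factors from miRNA rows 3 and 13 (1 lower with PNK). The sum over all Y RNA pseudogenes was called with PNK (log2 0.86, SE 0.18, edgeR adjusted p = 0.0331) and lost the call without A7 library 2, E4 library 1 or E4 library 2 (0.70 to 1.00). Without PNK that sum differed by 0.16 (95% interval -0.21 to 0.52), and its interaction was not called (0.71, edgeR adjusted p = 0.181).

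**Figure D4:**
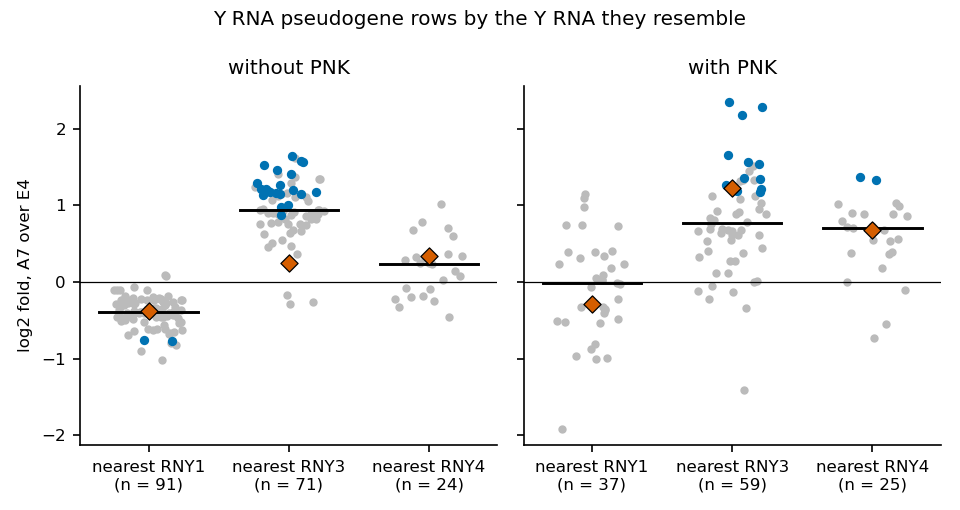
Log2 difference of A7 over E4 for each tested Y RNA pseudogene row, grouped by the Y RNA of nearest sequence, without PNK (left) and with PNK (right); blue points were called, black bars are medians and orange diamonds the Y RNA gene itself. The rows nearest to RNY3 have medians of 0.94 and 0.77, while those nearest to RNY1 have -0.39 and -0.01.

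Nuclear tRNA rows were called in both directions. Without PNK 376 of 528 rows were tested, 20 called higher and 8 lower (backgrounds 2.94% and 1.68%), with a median of 0.25. Of these calls 71.4% were higher, against 63.6% of all calls. With PNK 369 were tested, 8 called higher and 18 lower (backgrounds 0.401% and 0.641%), with a median of -0.15. Of these calls 30.8% were higher, against 38.5% of all calls. With library totals alone the counts were 77 and 4 without PNK (95.1% higher) and 21 and 30 with PNK (41.2%), and with factors from miRNA rows 3 and 1 (75%) and 6 and 37 (14%). The sum over nuclear tRNAs was not called in either arm (0.43, edgeR adjusted p = 0.155, and 0.16, adjusted p = 0.504), and its interaction was -0.27 (adjusted p = 0.558). Since many tRNA genes are identical or nearly so, single tRNA rows share reads, and values for 1 copy are uncertain.

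By amino acid, aspartate tRNAs were called higher in 7 of 15 rows without PNK (median 0.95, background 2.94%) and 1 of 15 with PNK (0.28, background 0.401%), and 0 lower. Glutamine tRNAs had 0 calls among 18 rows without PNK, where A7 lay above E4 in 9 (background 17.8%) and the median was 0.53. With PNK 6 of 18 glutamine rows were called higher (background 0.401%), A7 lay above in 13 (background 9.95%) and the median was 0.74. Tyrosine tRNAs had a median of -0.66 without PNK, with 1 higher and 2 lower of 11 (backgrounds 2.94% and 1.68%). With PNK the tyrosine median was -1.01, with 4 lower of 12 (background 0.641%). Glycine rows had 5 calls higher and 1 lower of 31 without PNK and 1 lower of 31 with PNK, against the same backgrounds. These counts depended on the scaling. Without PNK, factors from miRNA rows called 0 rows of each of these amino acids in edgeR (14 aspartate, 9 glutamine, 7 tyrosine and 14 glycine rows at an unadjusted p under 0.05), and library totals called 14 aspartate, 7 glutamine and 10 glycine rows higher, 1 glycine row lower, and 1 tyrosine row in each direction. With PNK, library totals called 4 aspartate and 11 glutamine rows higher and 5 tyrosine and 2 glycine rows lower, and factors from miRNA rows called 1 and 3 higher and 6 and 4 lower.

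tRNA-Met-CAT-1-1 (chr16:87384022-87384094), an elongator methionine tRNA, stood at 51.8, 50.6 and 39 CPM in A7 and 13.8, 15.3 and 15.9 CPM in E4 without PNK. The groups were well apart, with a log2 difference of 1.65 (SE 0.18, edgeR adjusted p = 0.0177), or 3.15-fold by the means. With PNK it stood at 176, 122 and 182 CPM in A7 and 161, 137 and 193 CPM in E4, and the groups overlapped (-0.03, 95% interval -0.45 to 0.38). tRNA-Gly-GCC-5-1 copy 2 stood at 514, 312 and 132 CPM in A7 and 80.9, 71 and 77 CPM in E4 without PNK (log2 2.07, SE 0.43, edgeR adjusted p = 0.0442). All 3 A7 libraries were higher, library 1 by the most. With PNK it differed by 0.22 (95% interval -0.08 to 0.52). tRNA-SeC-TCA-1-1, which reads UGA codons as selenocysteine, stood at 76.8, 56.6 and 36.2 CPM in A7 and 18.5, 18.8 and 20.1 CPM in E4 without PNK (log2 1.56, edgeR adjusted p = 0.0442). The calls of the glycine and selenocysteine rows ended without A7 library 1 or 2 or E4 library 1 or 2, and that of the methionine row without A7 library 1, E4 library 1 or E4 library 2.

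Some tRNA rows were lower in A7 in both arms. tRNA-Tyr-GTA-4-1 with PNK stood at 5.61, 2 and 3.13 CPM in A7 and 21, 16.1 and 22.3 CPM in E4. Its groups were apart at these low levels, with a log2 difference of -2.47 (SE 0.28, edgeR adjusted p = 0.0042), and -1.24 without PNK (adjusted p = 0.0442). tRNA-Leu-AAG-1-3 copy 2 with PNK stood at 33.9, 20.8 and 28.9 CPM in A7 and 94.1, 79.6 and 85.2 CPM in E4, again with no overlap. Its log2 difference was -1.63 with PNK (SE 0.19, edgeR adjusted p = 0.0042) and -0.71 without (adjusted p = 0.0449). A row higher in A7 with PNK was tRNA-Gln-CTG-2-1 copy 2, at 67.3, 62.8 and 45.7 CPM in A7 and 25.9, 22.7 and 25.2 CPM in E4 (log2 1.25, SE 0.17, edgeR adjusted p = 0.00747). Without PNK the same row differed by 0.74 (edgeR adjusted p = 0.119). With PNK the tyrosine and leucine calls ended without E4 library 1, and the glutamine call without E4 library 1 or 2. Without PNK the tyrosine and leucine calls ended without A7 library 1 or 2 or E4 library 1 or 2, and by DESeq2's Wald test. The leucine call without PNK also ended with library totals alone (-0.51, edgeR adjusted p = 0.0815).

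Summed over all rows of an anticodon, which were given as estimates with no test, the differences without PNK were 1.14 for Met-CAT (95% interval 0.94 to 1.35), 1.55 for SeC-TCA (0.98 to 2.13), 1.02 for Gly-GCC (0.36 to 1.69) and 0.99 for Asp-GTC (0.56 to 1.42). With PNK the intervals of the first 3 included 0, and that of Asp-GTC was 0.08 to 0.84. Gln-CTG had 0.60 (0.31 to 0.90) without PNK and 0.80 (0.42 to 1.18) with it, and Leu-AAG -0.51 (-0.68 to -0.34) and -0.98 (-1.40 to -0.57). The sum over Tyr-GTA had -0.13 (-0.32 to 0.07) without PNK and -0.55 (-0.94 to -0.15) with it, smaller than the median of its rows in both arms.

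The counts of tRNA calls followed the libraries left out. Without PNK, edgeR called 0 higher and 0 lower without A7 library 1, E4 library 1 or E4 library 2 (104, 98 and 102 rows at an unadjusted p under 0.05). It called 1 higher and 1 lower when A7 library 2 was omitted, 56 and 13 for A7 library 3, and 38 and 19 for E4 library 3. With PNK, omitting A7 libraries 1, 2 and 3 left 6, 4 and 6 higher and 53, 10 and 8 lower. Omitting E4 libraries 1, 2 and 3 left 0, 0 and 11 higher and 0, 4 and 33 lower, with 109 rows at an unadjusted p under 0.05 for E4 library 1.

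C/D snoRNA rows that were called were lower in A7. Without PNK, 216 of 361 rows were tested, 0 were called higher and 14 lower (background 1.68%), and with PNK 199 were tested, 0 higher and 16 lower (background 0.641%). With library totals alone the counts were 1 higher and 30 lower without PNK and 0 and 41 with PNK. With factors from miRNA rows edgeR called 0 rows without PNK (91 at an unadjusted p under 0.05) and 61 lower with PNK. The median difference was -0.55 without PNK and -0.44 with PNK, against -0.01 and 0.01 over all features. Every A7 library lay below every E4 library for 88 rows without PNK (background 14.7%) and for 67 with PNK (background 9.77%). The sum over C/D snoRNAs, which a few abundant members such as SNORD49A dominate, was not called in either arm (-0.26, edgeR adjusted p = 0.155, and -0.06, adjusted p = 0.929).

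SNORD68, made from an intron of the ribosomal protein gene RPL13, stood at 1000.4, 473 and 938 CPM in A7 and 3849, 6191 and 1868 CPM in E4 without PNK. With PNK it stood at 258, 78.3 and 124 CPM in A7 and 708, 936 and 332 CPM in E4. The groups did not overlap in either arm, and E4 library 3 was the lowest of E4 in both. The log2 difference was -2.30 without PNK (SE 0.46, edgeR adjusted p = 0.0442) and -2.10 with PNK (SE 0.42, adjusted p = 0.0393). SNORD50A, hosted by SNHG5, stood at 6438, 3583 and 6478 CPM in A7 and 14402, 21929 and 12269 CPM in E4 without PNK (log2 -1.56, edgeR adjusted p = 0.0442), and differed by -1.22 with PNK (adjusted p = 0.0408). SNORD41, from an intron of TNPO2, stood at 214, 117 and 315 CPM in A7 and 636, 824 and 616 CPM in E4 without PNK (log2 -1.68, edgeR adjusted p = 0.0442), and differed by -1.22 with PNK (adjusted p = 0.0393). The calls of these 3 snoRNAs ended without A7 library 1 or 2 or E4 library 1 or 2 in the arm without PNK. With PNK they ended without A7 library 3, E4 library 1 or E4 library 2, and those of SNORD68 and SNORD50A also without A7 library 2. The estimates for SNORD68 stayed between -2.64 and -1.83 and between -2.71 and -1.78.

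The SNORD116 cluster, imprinted and expressed from the paternal copy, had the lowest median of the snoRNA groups described here. Of its 30 rows, 26 were tested without PNK, with 1 called lower (background 1.68%) and a median of -1.57. With PNK 27 were tested, with 7 lower (background 0.641%) and a median of -1.16. With library totals alone 11 were called lower without PNK and 15 with PNK, and with factors from miRNA rows 0 (21 at an unadjusted p under 0.05 in edgeR) and 16. SNORD116-22 with PNK stood at 12.2, 8.45 and 9.01 CPM in A7 and 28.8, 39.3 and 16.4 CPM in E4, with no overlap (log2 -1.51, edgeR adjusted p = 0.0291). This call ended without A7 library 2 or 3 or E4 library 1 or 2 (-1.78 to -1.20). Without E4 library 3 the calls in the cluster rose to 19 without PNK and 16 with PNK, and without A7 library 3 to 11 without PNK, or without A7 library 1 to 16 with PNK. With A7 library 1 or 2 or E4 library 1 or 2 left out, 0 rows were called without PNK (20, 21, 20 and 19 at an unadjusted p under 0.05 in edgeR). With PNK the count was 1 without A7 library 2 and 0 without A7 library 3, E4 library 1 or E4 library 2 (18, 19 and 17 at an unadjusted p under 0.05). The 10 C/D snoRNAs hosted by GAS5 had 0 calls in both arms (backgrounds 1.68% and 0.641% lower), a count too small to set beside these shares. Their medians were -0.42 and -0.48, against -0.55 and -0.44 over all C/D snoRNAs. In edgeR 3 and 5 of them had an unadjusted p under 0.05, and factors from miRNA rows called 3 lower with PNK. H/ACA snoRNAs, which guide pseudouridylation, had 0 calls among 89 without PNK (background 1.68% lower, median -0.55) and 2 lower among 84 with PNK (background 0.641%, median -0.57). With library totals alone 2 H/ACA rows were called higher and 3 lower without PNK and 17 lower with PNK, and with factors from miRNA rows 0 without PNK (23 at an unadjusted p under 0.05 in edgeR) and 23 lower with PNK.

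By length, the median difference without PNK was -0.21 over the 44 C/D snoRNAs of up to 70 bases, -0.49 over the 109 of 71 to 90 and -0.88 over the 63 longer ones, or -0.69 without SNORD116. With PNK the medians were -0.32, -0.39 and -0.72, or -0.49 for the longer ones without SNORD116. The part of RNA length in these differences was not tested.

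Without PNK, edgeR called 0 C/D snoRNAs lower when A7 library 1 or 2 or E4 library 1 or 2 was left out (81, 81, 83 and 72 at an unadjusted p under 0.05), 59 without A7 library 3 and 62 without E4 library 3. With PNK it called 52, 5 and 0 without A7 library 1, 2 or 3 (91 at an unadjusted p under 0.05 for library 3), and 0, 0 and 49 without E4 library 1, 2 or 3 (79 and 82 for libraries 1 and 2). The median stayed between -0.83 and -0.41 without PNK and between -0.64 and -0.25 with PNK. Leaving out E4 library 3, the library low in H/ACA snoRNAs, raised the H/ACA calls from 0 to 30 of 95 without PNK and from 2 to 32 of 90 with PNK, all lower in A7. Since E4 library 3 was singled out by these same low counts, the rise largely follows from that choice and lends no separate weight. With PNK too, E4 library 3 held fewer counts in H/ACA snoRNAs, 0.130% against 0.227% and 0.234% in the other E4 libraries and 0.0994 to 0.148% in A7.

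Mitochondrial tRNAs are transcribed by the mitochondrial polymerase, not Pol III. With PNK all 20 tested rows had a negative difference, 5 were called lower (background 0.641%), and in 18 every A7 library lay below every E4 library (background 9.77%). The median was -0.57. The called rows were MT-TC, MT-TW, MT-TM, MT-TA and MT-TG. MT-TC stood at 94, 81 and 89.9 CPM in A7 and 164, 162 and 139.9 CPM in E4. Its groups were tight and apart, with a log2 difference of -0.81 (SE 0.15, edgeR adjusted p = 0.0278), a call that ended without A7 library 2 or 3 or E4 library 1 or 2 (-0.88 to -0.77). The summed family stood at 29304 to 31912 CPM in A7 and 39696 to 42499 CPM in E4 with PNK (log2 -0.40, SE 0.09, edgeR adjusted p = 0.0331, among 3 of 23 family sums called, 13%). The sum over mitochondrial rRNA differed by -0.31 (edgeR adjusted p = 0.0455).

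Both mitochondrial sums lost the call without A7 library 2 or any of the E4 libraries, with library totals alone and with factors from miRNA rows, while the log2 difference of the tRNA sum stayed between -0.43 and -0.37 over the fits that leave out a library. The number of mitochondrial tRNA rows called was 7, 0 and 1 without A7 library 1, 2 or 3 (13 at an unadjusted p under 0.05 for library 2) and 0, 0 and 9 without E4 library 1, 2 or 3 (15 and 15 for libraries 1 and 2). Without PNK edgeR called 0 of the 20 rows, the median was 0.11, and MT-TE stood at 1091, 707 and 273 CPM in A7 and 252, 219.8 and 319.7 CPM in E4, with overlap (log2 1.39, edgeR adjusted p = 0.0881). The interaction of the mitochondrial tRNA sum was not called (-0.80, edgeR adjusted p = 0.181).

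Of 330 miRNA rows tested without PNK, 2 were called higher and 2 lower (backgrounds 2.94% and 1.68%). The interval lay within 2-fold for 79.7%, against 55.6% of all features. The median was 0.01. MIR363, in the X-linked miR-106a-363 cluster, stood at 62.3, 75.9 and 59.4 CPM in A7 and 20.7, 23.6 and 24.9 CPM in E4, with no overlap (log2 1.51, SE 0.17, edgeR adjusted p = 0.0177). The other tested rows of that cluster, among them MIR106A at -0.21 and MIR20B at 0.03, were not called. The rows of MIR92A1 and MIR25, whose mature forms share the seed AUUGCAC with miR-363-3p, differed by -0.18 (95% interval -0.46 to 0.09) and 0.03 (-0.26 to 0.33). MIR92A1 stood at 11269.7, 11280.4 and 11206 CPM in A7 and 12569, 13004 and 12681 CPM in E4.

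MIR335, within an intron of MEST, stood at 135, 153 and 142 CPM in A7 and 81.6, 87.1 and 86.6 CPM in E4, apart and tight (log2 0.75, SE 0.14, edgeR adjusted p = 0.0442). MIR197 stood at 28.6, 22.8 and 38.6 CPM in A7 and 60.8, 81.3 and 57.4 CPM in E4, with no overlap (log2 -1.15, edgeR adjusted p = 0.0442). MIR1226 was called lower as well (-0.98, adjusted p = 0.0464). The call of MIR363 ended without A7 library 1, E4 library 1 or E4 library 2, and those of MIR335 and MIR197 also without A7 library 2. The call of MIR1226 ended without any 1 of the 6 libraries and by DESeq2's Wald test. Without PNK the interval lay within 2-fold for all tested rows of the haematopoietic (7), monocyte maturation (11), cell cycle (9), let-7 (9), fibroblast (5) and miR-106b-25 (3) lists. It did so for 7 of 8 miR-188 to miR-660 rows, 4 of 5 miR-106a-363 rows, 3 of 4 epithelial rows and 0 of 1 erythroid row, which differed by -0.62. With PNK it did so for 5 of 7 haematopoietic, 4 of 7 monocyte maturation, 8 of 9 cell cycle, 5 of 9 let-7 and 1 of 1 fibroblast rows. With PNK, where miRNAs are few, 183 rows were tested and 1 was called higher (background 0.401%).

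Among the other Pol III RNAs, RPPH1, the RNA of RNase P, stood at 32.4, 29.8 and 35.6 CPM in A7 and 70.4, 97.3 and 45.3 CPM in E4 without PNK. The groups did not overlap, and the difference missed the threshold (-1.12, edgeR adjusted p = 0.0554). RMRP, the RNA of RNase MRP, stood at 155, 89.5 and 129 CPM in A7 and 315, 309 and 162 CPM in E4 with PNK (-1.08, edgeR adjusted p = 0.0689). The sums of 7SL (0.00 without PNK, 95% interval -0.32 to 0.33, and 0.01 with PNK, -0.45 to 0.48) and U6 (0.04, -0.33 to 0.41, and -0.04, -0.49 to 0.41) had intervals within 2-fold in both arms. The 5S rRNA sum differed by -0.81 and -0.41 and was not called (edgeR adjusted p = 0.151 and 0.205).

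The arms shared part of their calls. Of the features called, 20 were called in both arms, 26% of the 77 without PNK and 25.6% of the 78 with PNK, and all 20 had the same sign. They were SNORD68, SNORD50A, SNORD41, SNORD71, SNORD67 and SNORD116-22, 6 tRNA rows of tyrosine, leucine, lysine and glycine, all lower in A7, and 1 aspartate tRNA row, RNY3P6 and 6 other Y RNA pseudogenes, all higher. Of 1256 features tested in both arms, 871 had the same sign (69.3%), with a Pearson correlation of 0.632 across features, which are not independent replicates. Whether the arms were made from the same RNA is not given in the labels.

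**Figure D5:**
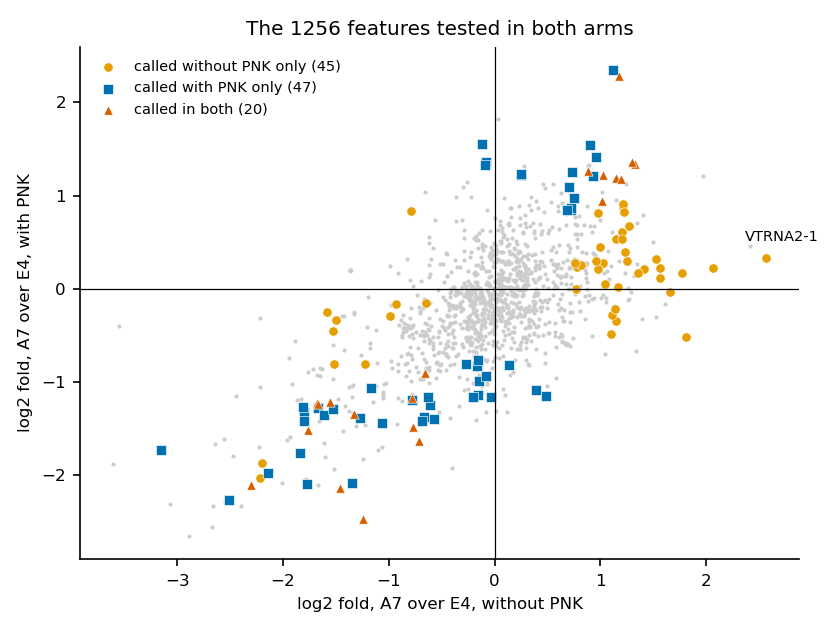
Log2 difference of A7 over E4 with PNK (y axis) against that without PNK (x axis) for the 1256 features tested in both arms, coloured by the arm in which each was called. The 20 features called in both arms lie in the lower left or upper right quadrant, and VTRNA2-1 lies at 2.56 without PNK and 0.33 with PNK.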

How the data were processed

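The deposited values are raw read counts per annotated non-coding RNA row, which the authors had not normalized. Per the submitters' processing notes, Trim Galore, FastQC, Bowtie2 2.3.5.1, SAMtools 1.9, deepTools 3.2.1, bedtools 2.28.0 and GRCh38 were used. Checked on the values, a read adds to each row that it covers, on either strand. A non-overlapping set of 85781 out of 175946 rows was kept, short structured RNAs first, and all tests used these. Near-identical copies still share reads, so single copies of tRNAs and pseudogenes are uncertain. A miRNA row carries the counts of its hairpin.

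Each arm was fitted apart on 3 A7 and 3 E4 libraries with edgeR 4.0.16 (quasi-likelihood test, TMM factors, filterByExpr, group as the only term) in R 4.3.3, with limma 3.58.1, and Benjamini-Hochberg adjustment over all features tested at 0.05. Family sums used the same factors and needed 30 counts. Intervals are 95% of the unshrunk log2 difference. DESeq2 1.42.0 served as an alternative. The interaction was fitted on all 12 libraries as independent samples; the labels do not say whether same-numbered libraries of the arms share RNA. Y RNA pseudogenes were aligned with Biopython 1.88 in Python 3.11.15. The code was tested on simulated data.

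The named features were the 15 largest rises and 15 largest falls of each arm at or above the median abundance whose groups do not overlap, the 8 smallest p-values in each direction, the small Pol III families, the 10 most abundant features, the marker miRNAs and the 5 most abundant members of called families. The members and lists were chosen with earlier results of these data known. Features outside this rule, such as single tRNA and snoRNA rows and 1 Y RNA pseudogene, were chosen after their values were seen. Y RNA sequences are not reported here.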

Additional observations from a re-analysis of the deposited data

Results flagged for a closer look

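For 17 results the difference between A7 and E4 itself differed between the arms: 16 features and the vault RNA sum. The test was edgeR's group-by-arm term, which treats all 12 libraries as independent, and the value is the log2 difference with PNK minus that without. VTRNA2-1 had -2.24 (adjusted p = 0.00133) and the vault RNA sum -1.57 (adjusted p = 0.0215). SNORA10, an H/ACA snoRNA, had 3.13 (adjusted p = 0.00197), with 0.783, 0.0873 and 1.73 CPM in A7 and 10.9, 19.3 and 1.25 CPM in E4 without PNK.

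Among tRNA rows, tRNA-Asp-GTC-5-1 had -2.33 (adjusted p = 0.00773), tRNA-Gly-GCC-5-1 copy 2 -1.85 (adjusted p = 0.0215) and tRNA-Met-CAT-1-1 -1.68 (adjusted p = 0.0215). For tRNA-Asp-GTC-5-1 with PNK, A7 library 2 stood at 9.45 CPM against 77.9 and 65.2 CPM in the other A7 libraries. The value was -1.75 for tRNA-Leu-CAG-2-25 copy 2 (adjusted p = 0.0193), -1.63 for tRNA-Leu-TAG-2-1, -1.77 for tRNA-Val-CAC-2-1 and -1.58 for tRNA-Met-CAT-1-24 (adjusted p = 0.0319 each), and 1.62 for tRNA-Val-CAC-7-1 (adjusted p = 0.0355). The mitochondrial MT-TE had -1.70 (adjusted p = 0.0388).

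The miRNA row at chr15:88538579-88538687 had 1.67 (adjusted p = 0.0319), with 14.5, 30.9 and 17.2 CPM in A7 and 7.64, 7.28 and 6.33 CPM in E4 with PNK. MIR6515 had -2.26 (adjusted p = 0.0215). The long non-coding RNA rows lnc-MCTP1-2, lnc-GEMIN6-1 copy 2 and HSALNG0089877 had -1.83 (adjusted p = 0.0286), -1.96 (adjusted p = 0.0355) and 4.49 (adjusted p = 0.0319).

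All 16 feature calls ended without A7 library 1 or E4 library 1 of the arm without PNK (0 features called by edgeR, with 501 and 510 at an unadjusted p under 0.05), and 15 of them without E4 library 2 of that arm, where VTRNA2-1 alone was called. With same-numbered libraries of the arms as a block, all 16 and the vault sum were called.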

How the results depend on the processing

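No called feature or family sum reversed under an alternative that was run; named features were not refitted over every deposited row. The features called without PNK (77) were 216 with library totals alone, 10 with factors from miRNA rows, 157 with DESeq2's Wald test, 276 with no filter, 212 over every deposited row and 2 with all 12 THP-1 libraries in the fit. With PNK (78) they were 185, 192, 207, 358, 571 and 8, and 175 over short structured RNAs alone. Leaving out 1 library gave 0 to 223 without PNK and 0 to 215 with PNK. Family sums called without PNK (1) were 2 over every row and 2 in the robust fit, and 0 to 6 with a library left out; with PNK (3) they were 0 to 4. The features with intervals within 2-fold were 3599 over every row and 428 with 12 libraries without PNK, and 20494 over every row and 728 over short RNAs with PNK. The interaction calls (16) were 36 with DESeq2 size factors, 53 with totals, 30 with miRNA factors and 0 to 31 with a library left out (25 and 27 without A7 library 2 with PNK and A7 library 3 without PNK), and its family sums (1) were 2 with DESeq2 size factors and 0 to 3 with a library left out. Library totals moved the median of all features to 0.19 without PNK.

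Same-numbered libraries of A7 and E4 did not deviate together (correlations of 0.114, -0.37 and -0.248 without PNK and 0.105, -0.0179 and -0.0369 with PNK), so the numbers were not taken as a pairing. With the replicate number as a block, edgeR called 0 features (363 at an unadjusted p under 0.05) and 0 family sums without PNK, 51 features and 0 family sums with PNK. Same-numbered libraries of the 2 arms had correlations of -0.0245, 0.216 and 0.258 in A7 and 0.302, 0.488 and 0.612 in E4. Different-numbered ones had -0.253 to 0.0971 in A7 and -0.54 to 0.314 in E4. E4 libraries 1 and 2 had 0.294 and 0.314 across numbers, so these values do not settle whether the numbers are a pairing. With same-numbered libraries of the arms as the block, the interaction was called for 56 features and 2 family sums.

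Depth limits rows of a few CPM, such as tRNA-Tyr-GTA-4-1, most.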
